A study of Mus musculus with 4 samples.

Results

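Tags 6 and 8 of experiment 1 are 2 cultures of mouse T-cell progenitors with high levels of genes that interferons induce, and they are set here beside the cultures of tags 5 and 7. The 4 cultures were chosen by those measured interferon response levels, so every value below is a description without a test. They hold 3913 of the 8797 cells with a tag call in experiment 1 and of the 17132 in both experiments. Tags 5, 6, 7 and 8 hold 886, 1138, 1198 and 691 cells. A tag is a hashtag, an antibody with a short DNA label that marks every cell of one sample before samples are pooled. The tags are numbered 1 to 8 in the order of the hashtag table.

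In the study, progenitors from mouse bone marrow were cultured with OP9-Dll1, stromal cells that display the Notch ligand Dll1 and so drive early T-cell development in a dish. All mice carried a Bcl2 transgene, which keeps cells alive, and all cultures received IL-7 and Flt3-ligand at 10 ng/ml each. Runx1 was overexpressed in cells of B6.Bcl2 transgenic mice aged 8 to 10 weeks with the retroviral vector MSCV-Runx1-mCherry, against MSCV-empty-mCherry. Runx1 and Runx3 were deleted together in cells of B6.Cas9;Bcl2 transgenic mice with E42-gRunx1-humanNGFR and E42-gRunx3-mTurquoise, at 3 guide pairs per gene, against vectors with control guides to luciferase.

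Vectors were added on day 2, and experiment 1 was collected after 4 to 5 days of culture in all. Living lineage-negative CD45+ cells were sorted that carried mCherry, or both mTurquoise and human NGFR, and equal numbers per replicate were pooled into one droplet library. The labels assign no tag to a vector, a genotype or a day, and they do not say which tags share mice, virus or a culture plate. Each tag is therefore 1 culture of unknown condition, and the 4 cultures compared have no labelled replicate. The interferon level and any such factor cannot be told apart here.

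Interferons are secreted signals of infection that act through surface receptors and Janus kinases. Type I interferons act mainly through the interferon-stimulated response element (ISRE) of their target genes, and interferon gamma through the gamma-activated site (GAS). Interferon gamma also induces the coactivator CIITA, which turns on the MHC class II genes together with factors on their promoters, among them one at CCAAT boxes. MHC class II is also made without interferon in professional antigen-presenting cells and in some early progenitors.

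The 4 cultures are identified by the 15-base hashtags below, printed 5′ to 3′ so that the tags can be matched to sample sheets.
Tag 5: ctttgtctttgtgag
Tag 6: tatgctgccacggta
Tag 7: gagtctgccagtatc
Tag 8: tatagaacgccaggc
The same 8 hashtag sequences were used in experiment 2, where they mark other cultures.

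Runx1 separated the 4 cultures along another line. Its level was 96.5 CPM (UMIs of the gene per 1000000 UMIs of the culture) in tag 5, 85.8 in tag 6, 241 in tag 7 and 210 in tag 8. A UMI is a molecular barcode that counts 1 captured RNA molecule. Tags 5 and 6 are thus a pair of low Runx1 and tags 7 and 8 a pair of high Runx1. Low and high apply among these 4 cultures only, as tags 1 to 4 were lower still, at 76.9, 79.4, 38.2 and 39.3 CPM. Each pair holds 1 culture of high and 1 of low interferon response. The ratio of Runx1 within a pair was 0.889 for tag 6 over 5 and 0.872 for tag 8 over 7. Median depth was 23086, 24777, 18058 and 20809 UMIs per cell in tags 5 to 8, and so was higher in tags 6 and 8 than in the other culture of the pair. With every cell thinned to 5000 UMIs, 21 genes were called higher, all among the 30 described next.

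The genes called higher in tags 6 and 8 were mostly interferon response and MHC class II genes. That each is higher in both Runx1 pairs follows from the rule of the call. A gene was called where both tags 6 and 8 were at least 1.5 times both tags 5 and 7, among the 7339 genes whose level averaged 10 CPM or more over the 8 tags. By this rule 30 genes were called higher, 0.409% of those tested, and 1 was called lower, 0.0136%. Of the 30, 24 are in the interferon or MHC class II lists and 6 are not. Absence from the lists does not mean that a gene is unrelated to interferon. The call nearest to the threshold was Gbp2, whose lower value in tags 6 and 8 was 1.52 times its higher value in tags 5 and 7. The gene nearest to it from outside was Cmpk2, an antiviral nucleotide kinase, at 1.41 times. Without any size limit, 779 genes were above in both tags, 10.6% of those tested, and 963 were below, 13.1%. Across all genes tested the median log2 ratio was -0.01 both for tag 6 over 5 and for tag 8 over 7.

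**Figure D1:**
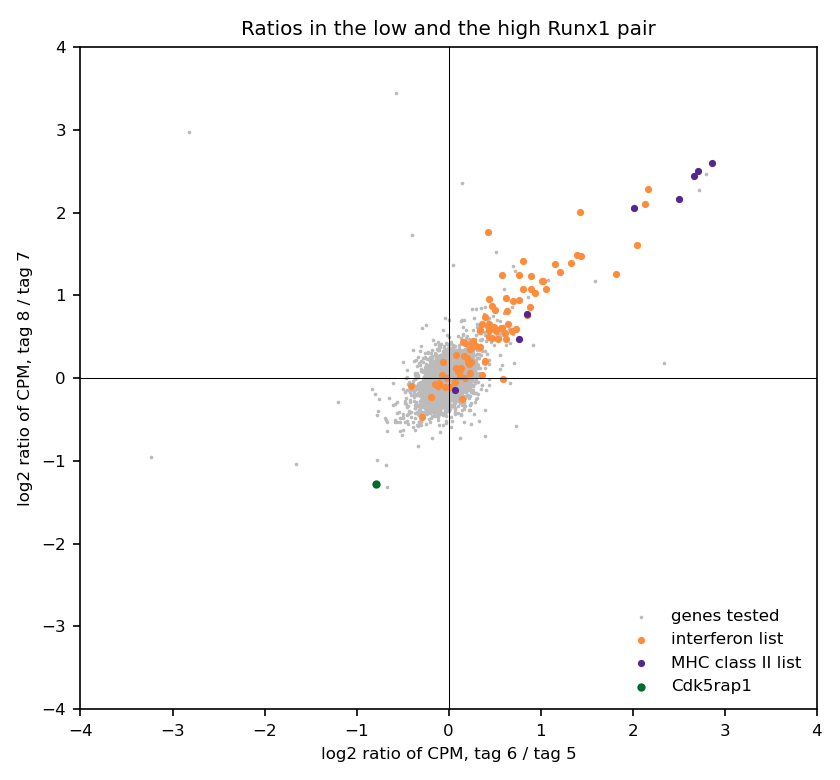
Log2 ratio of CPM in tag 6 over tag 5 (horizontal) and in tag 8 over tag 7 (vertical) for the genes tested, with the interferon list in orange, the MHC class II list in purple and Cdk5rap1 in green. The listed genes run along the diagonal to the upper right while most genes lie near 0, and 3 genes beyond 4 on either axis (S100a9, Mcpt1 and Ngp) are not drawn.

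The same 4 cultures can be cut along Runx1, and the contrast then uses the same cells. With tags 7 and 8 over tags 5 and 6, 113 genes were called higher, 1.54% of those tested, and 87 lower, 1.19%. Counts for the 2 cuts are given side by side only, since they rest on the same 4 tags.

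Promoter sequences of 7 of the called genes show which letters the 2 leading groups have in common. They are stretches of RefSeq, build GRCm38.p6, from 120 bases before to 30 bases after the annotated start, with motif matches in capitals. In the GTPase genes the capitals mark the ISRE, searched as GAAA, any 2 bases and GAAA, and the GAS, searched as TTCNNNGAA. In the 2 MHC class II genes they mark CCAAT. All were searched on both strands and matches may overlap.
Gbp2, chr3:142620543-142620692, plus strand: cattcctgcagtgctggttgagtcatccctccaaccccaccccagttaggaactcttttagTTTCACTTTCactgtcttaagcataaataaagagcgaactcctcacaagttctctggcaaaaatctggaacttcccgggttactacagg
Gbp7, chr3:142530216-142530365, plus strand: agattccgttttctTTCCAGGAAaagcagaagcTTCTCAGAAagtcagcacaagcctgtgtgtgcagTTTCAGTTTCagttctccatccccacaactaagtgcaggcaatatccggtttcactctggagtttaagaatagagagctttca
Igtp, chr11:58199436-58199585, plus strand: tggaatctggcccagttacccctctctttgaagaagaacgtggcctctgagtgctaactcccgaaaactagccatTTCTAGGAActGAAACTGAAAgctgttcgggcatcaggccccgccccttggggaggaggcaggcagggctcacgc
Irgm1, chr11:48871391-48871540, minus strand: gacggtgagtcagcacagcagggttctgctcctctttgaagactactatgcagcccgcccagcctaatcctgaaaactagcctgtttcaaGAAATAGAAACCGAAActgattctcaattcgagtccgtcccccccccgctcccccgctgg
Tgtp1, chr11:48992217-48992366, minus strand: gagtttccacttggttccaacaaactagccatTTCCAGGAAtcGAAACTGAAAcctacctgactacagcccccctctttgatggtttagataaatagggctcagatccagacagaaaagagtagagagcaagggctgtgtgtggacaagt
H2-Aa, chr17:34287794-34287943, minus strand: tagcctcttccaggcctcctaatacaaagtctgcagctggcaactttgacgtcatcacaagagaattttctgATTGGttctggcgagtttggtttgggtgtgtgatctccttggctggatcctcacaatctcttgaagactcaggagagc
H2-Eb1, chr17:34305747-34305896, plus strand: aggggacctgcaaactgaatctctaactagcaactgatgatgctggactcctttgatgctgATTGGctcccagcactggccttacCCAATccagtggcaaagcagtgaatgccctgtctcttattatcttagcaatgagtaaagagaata

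In these stretches Igtp and Tgtp1 each hold a GAS match followed within a few bases by an ISRE match, and the 2 ISRE matches of Irgm1 overlap. The search covered the 300-base windows of RefSeq, and 21 of the 30 genes called higher had one. A gene counts where any of its windows holds a match. An ISRE match was in 9 of the 9 called GTPases with a window. It was in 3.85% of the 5839 tested genes with a window and in 3.44% of all 32851 windows. A GAS match was in 6 of those 9 GTPases, against 8.12% of those tested genes and 8.3% of all windows. CCAAT was in 4 of the 4 called class II genes with a window, in which neither of the other motifs was found. But CCAAT is a common string, present in 43% of those tested genes and in 37.4% of all windows. A match is a description of letters and not a site of binding.

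The gene with the largest ratio, H2-Eb1, is one of the MHC class II genes, which encode the proteins that present peptides to CD4 T cells. Of the 10 genes in the class II list, 8 passed the 10 CPM minimum. Of these, 6 were called higher, against 0.409% of all genes tested, and none lower, against 0.0136%. The median log2 ratio over the 8 was 2.26 in the low Runx1 pair and 2.11 in the high Runx1 pair.

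Cd74, the invariant chain that guides class II to peptide loading, was at 61.3 CPM in tag 5, 389 in tag 6, 69.4 in tag 7 and 377 in tag 8. Its ratio was 6.36 (95% counting interval 6.00 to 6.75) for tag 6 over 5 and 5.43 (5.13 to 5.75) for tag 8 over 7. These intervals, exact for 2 Poisson counts, cover counting error only and not the spread between cultures. H2-Eb1, a class II beta chain at chr17:34305867-34316674, was at 19.5, 142, 17.8 and 108 CPM in tags 5 to 8. H2-Aa, an alpha chain, was at 25.4, 166, 20.8 and 118 CPM. H2-Ab1, its beta partner, was at 33.3, 189, 31.9 and 142 CPM. In all 4 chain genes the low cultures lay close together and far below both high ones, and tag 6 was above tag 8.

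The peptide-loading genes were higher by less. H2-DMb1, a subunit of the loading chaperone, was at 15.2, 61.5, 11.04 and 45.9 CPM in tags 5 to 8. H2-DMa, the other subunit, was at 60.6, 109, 64.6 and 110.2 CPM. H2-Oa, which encodes a modulator of that chaperone, did not follow, with 10.0, 10.5, 30.6 and 27.7 CPM, and was high in the high Runx1 pair instead. Ctss, a protease that trims the invariant chain, was at 21.4, 36.4, 52.4 and 72.4 CPM, so its groups overlapped. Ciita, the class II coactivator, was at 4.35, 19.5, 2.57 and 12.6 CPM, a ratio of 4.48 (3.57 to 5.66) and 4.89 (3.61 to 6.70). The low level of Ciita, 89, 549, 57 and 182 UMIs in tags 5 to 8, makes its ratio less precise than that of the chains.

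The interferon-inducible GTPases, which attack the vacuoles of intracellular microbes, were the broadest group. Of 16 listed, 12 passed the minimum, and 10 were called higher, against 0.409% of all genes tested. All 12 had both tags 6 and 8 above both tags 5 and 7, against 10.6%. With means over cells 5 of the 10 were no longer called (Gbp2, Iigp1, Irgm1, Irgm2 and Tgtp2), and with thinning 4 (Gbp2, Iigp1, Irgm1 and Tgtp2). The median log2 ratio over the 12 was 1.11 in the low Runx1 pair and 1.33 in the high Runx1 pair. In all 12, tag 8 was the highest and tag 7 stood above tag 5, whereas the 4 class II chain genes were higher in tag 6 than in tag 8.

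Gbp2, a guanylate-binding protein, was at 28.8 CPM in tag 5, 119 in tag 6, 78.6 in tag 7 and 240 in tag 8. Iigp1, an immunity-related GTPase of the other family, was at 17.4, 76.4, 41.2 and 177 CPM, and its ratio was 4.38 (3.92 to 4.92) and 4.30 (3.99 to 4.65). Igtp, also known as Irgm3, was at 53.5, 124, 69.6 and 169 CPM. Each of these genes was higher in tag 7 than in tag 5, and in tag 8 than in tag 6. Gbp7 was at 81.1, 164, 93.3 and 209 CPM, and Irgm1 was at 39.2, 73.1, 44.4 and 104 CPM. Gbp3, Gbp5, Tgtp1, Tgtp2 and Irgm2 completed the called set, with ratios from 1.76 to 4.03 over both pairs. Gbp4 and Gbp8 had no overlap between the groups but missed the 1.5-fold rule, with Gbp4 at 20.0, 40.6, 31.8 and 71.7 CPM. Tgtp1 and Tgtp2 are near-identical copies and H2-Q6 and H2-Q7 closely related genes, so the split of reads within each couple is uncertain.

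Ligand, receptor and Janus kinase genes were not called, and some transcription factor genes were. No gene of the 9 interferon ligands was tested. Ifng had 0, 1, 2 and 2 UMIs in tags 5 to 8, and Ifnb1, Ifna1, Ifna2, Ifna4, Ifnl2, Ifnl3, Ifne and Ifnk had 0 UMIs in all 8 tags. A count of 0 allows up to 0.147, 0.106, 0.135 and 0.207 CPM in tags 5 to 8, as 3 counts of each total. OP9-Dll1 cells were largely left out by the CD45 sort. Cluster 15 of the clustering described below, led by Col1a1, Fabp4 and Col3a1, held 3, 2, 3 and 2 cells of tags 5 to 8, so a ligand made in stromal cells was hardly sampled.

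Of the 9 receptor and Janus kinase genes 8 were tested and none was called. Of all genes tested 0.409% were called higher and 0.0136% lower, so that lack of a call says little. Ifngr1, the ligand-binding chain for interferon gamma, was at 92.9, 70.2, 68.9 and 64.3 CPM in tags 5 to 8. Ifngr2, its signalling chain, was at 10.99, 10.7, 28.0 and 26.0 CPM, and thus followed Runx1. Ifnar1, a chain of the type I receptor, was at 17.1, 18.9, 28.3 and 23.7 CPM. Ifnar2, the other chain of the type I receptor, was higher without overlap, at 47.7, 53.8, 53.6 and 53.7 CPM, with tags 7 and 8 nearly level. Jak1 was lower in tags 6 and 8 without overlap, at 181, 164, 165 and 156 CPM, a difference far below the call.

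Of 12 transcription factor genes 9 were tested, and 3 were called higher, against 0.409% of all genes tested. No overlap upward was found in 6, against 10.6%. Nlrc5, the class I counterpart of Ciita, was at 13.5, 20.8, 11.1 and 21.6 CPM. Irf1, which carries the interferon gamma signal further, was at 65.8, 93.7, 77.3 and 137 CPM and did not overlap, but tag 6 was less than 1.5 times tag 7. Irf7 and Irf9, linked more to type I interferon, overlapped between the groups, as tag 7 was above tag 6. Irf7 was at 8.21, 15.1, 18.8 and 34.2 CPM and Irf9 at 20.0, 24.0, 25.3 and 34.4 CPM. Within each Runx1 pair both genes were still higher in the culture of high interferon response.

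MHC class I and its peptide supply were higher in every gene by a smaller step. All 18 listed genes were tested, and all 18 had no overlap upward, against 10.6% of all genes tested. Of them 4 were called, against 0.409%. The median log2 ratio was 0.46 in the low Runx1 pair and 0.58 in the high one. B2m, the shared light chain, was at 845, 1146, 1004 and 1413 CPM in tags 5 to 8. H2-K1, a classical heavy chain, was at 796, 1138, 936 and 1393 CPM. Tap1, a subunit of the peptide transporter, was called, at 92.4, 150.5, 95.6 and 182 CPM. The other called genes were H2-Q6, H2-Q7 and H2-T22, nonclassical heavy chains, and H2-Q7 was at 166, 310, 128 and 270 CPM. Psmb9, a subunit of the immunoproteasome, was at 256, 349, 247 and 372 CPM.

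Classical antiviral effectors followed more weakly. Of 46 listed, 27 were tested and 13 had no overlap upward, against 10.6% of all genes tested. Only Parp9, an ADP-ribosyltransferase that works with Dtx3l, was called, at 39.3, 61.3, 39.0 and 68.1 CPM. Of all genes tested 0.409% were called higher. The median log2 ratio was 0.40 and 0.48 in the 2 pairs. Isg15, a ubiquitin-like modifier, was at 35.4, 68.0, 57.9 and 118 CPM. Ifi47 was at 88.5, 160, 124 and 212 CPM. Ifit1 stayed at 0.928, 2.13, 4.10 and 8.27 CPM, and Mx1 at 0.293, 0.461, 0.451 and 0.965 CPM, both below the minimum. Oasl2, an oligoadenylate synthetase-like gene, was at 8.35, 14.6, 16.9 and 35.6 CPM, so tag 7 was above tag 6.

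Of the RNA and DNA sensors 8 of 13 were tested. Of these, 4 had no overlap upward, against 10.6% of all genes tested, and none was called, against 0.409%. Zbp1, a sensor of Z-form nucleic acid, was at 5.67, 14.2, 16.9 and 44.3 CPM. Of the 5 tested chemokine and surface genes that interferon induces, Ly6a (Sca-1) alone had no overlap, at 72.6, 257, 236 and 562 CPM. Cxcl10, a chemokine of the interferon response, was at 7.47, 10.1, 15.6 and 53.1 CPM. Ly6a and Cxcl10 were higher in tag 7 than in tag 5, and Cxcl10 was also higher in tag 7 than in tag 6. Of the feedback inhibitors 3 of 6 were tested and none was called. Socs1, which blocks Janus kinases, was at 59.9, 65.1, 107 and 114 CPM and so followed Runx1.

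Over all roles, 90 of the 138 interferon genes were tested, 18 were called, 55 had no overlap upward and 1 downward. Of all genes tested 0.409% were called higher, 10.6% had no overlap upward and 13.1% downward. The median log2 ratio of the interferon genes was 0.44 and 0.57 in the 2 pairs. These lists share the readout by which the tags were chosen, so their direction supports nothing. Of the 138 genes 135 were in the files, and those not tested were below the 10 CPM minimum.

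**Figure D2:**
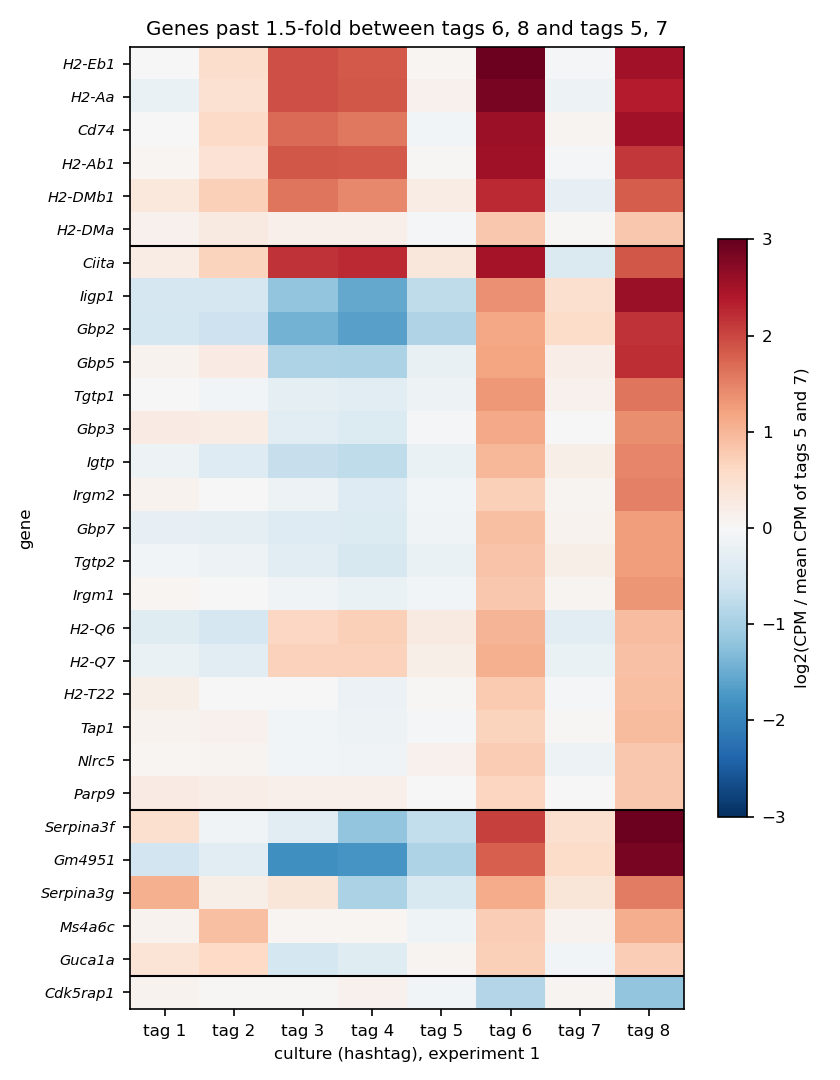
Level of 29 of the 31 called genes in the 8 cultures of experiment 1, as log2 of CPM over the mean CPM of tags 5 and 7. Lines part the MHC class II list, the interferon list, the genes outside both and Cdk5rap1. The class II genes other than H2-DMa, and Ciita, are also high in tags 3 and 4, where the GTPases are level or low.

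The remaining cultures of experiment 1 show that the 2 leading groups did not always go together. The sum of 4 class II genes (Cd74, H2-Aa, H2-Ab1 and H2-Eb1) was 139 CPM in tag 5, 887 in tag 6, 140 in tag 7 and 745 in tag 8. In tags 1 to 4 it was 139, 200, 489 and 463 CPM. The sum of the 16 GTPases was 343, 809, 479 and 1278 CPM in tags 5 to 8, and 346, 326, 319 and 298 CPM in tags 1 to 4. Tags 3 and 4, whose Runx1 was 38.2 and 39.3 CPM, thus had raised class II sums and the lowest GTPase sums of the experiment. Ciita was at 15.4 and 16.4 CPM in tags 3 and 4, inside the range of tags 6 and 8.

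In experiment 2, a separate library of other cultures, the class II sum ran from 256 to 2100 CPM over the 8 tags with a median of 1527. The GTPase sum ran from 108 to 993 CPM with a median of 420. The GTPase sum of tag 8 in experiment 1 was above all 8 tags of experiment 2, and that of tag 6 within their range. The 2 libraries were not scaled to each other beyond CPM.

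The list medians place the other programmes beside these groups. Cell cycle lists were level: the median log2 ratio of the 21 S phase genes was 0.03 and 0.07 in the 2 pairs, and that of the 20 G2 and mitosis genes was 0.02 and 0.03. Lists for glycolysis, cholesterol synthesis, the integrated stress response, heat shock and p53 targets had medians between -0.02 and 0.12. None of their genes was called, against 0.409% called higher and 0.0136% called lower among all genes tested. Of the 9 tested TGF-beta and SMAD genes none was called and 4 lay lower without overlap, against 13.1% of all genes tested, among them the receptor Tgfbr2 at 14.2, 12.6, 13.4 and 11.1 CPM. Of the 13 tested NF-kB and immediate early genes none was called. Without overlap, 2 of them lay higher and 2 lower, against 10.6% and 13.1% of all genes tested. Jun, an immediate early transcription factor, was lower at 78.9, 65.8, 76.9 and 64.4 CPM. Myc, a growth-promoting one, was at 67.5, 72.0, 57.4 and 67.6 CPM, with tags 5 and 8 nearly level. Its ratio of tag 6 over 5 was 1.07 (0.996 to 1.14).

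**Figure D3:**
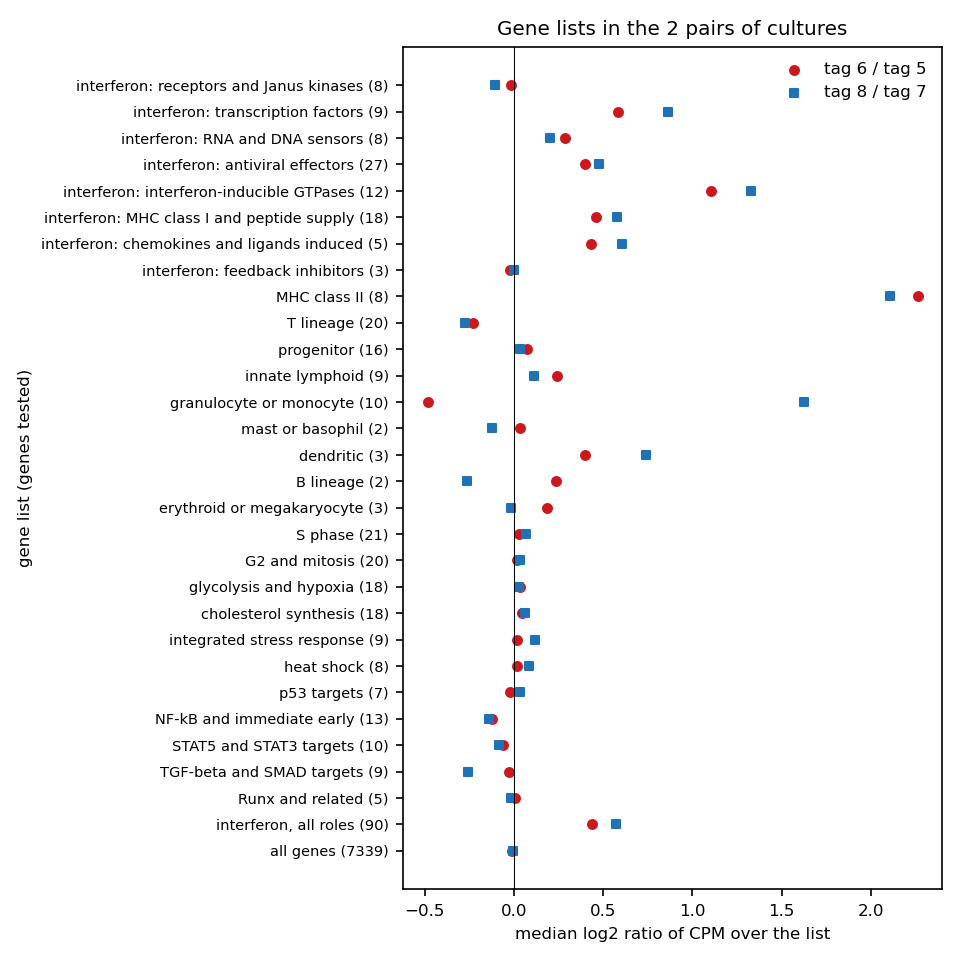
Median log2 ratio of CPM over the tested genes of each list, for tag 6 over tag 5 (red circles) and tag 8 over tag 7 (blue squares), with the number of genes tested in brackets. MHC class II (2.26 and 2.11) and the GTPases (1.11 and 1.33) lie far to the right, and most lists unrelated to interferon lie within 0.2 of 0.

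No T-lineage gene was called, and the median of the list lay below that of all genes. Of all genes tested 0.409% were called higher and 0.0136% lower, so the lack of a call in a short list says little. Of 31 listed, 20 were tested, none had no overlap upward, 5 had no overlap downward, against 13.1% of all genes tested, and 15 overlapped. The median log2 ratio was -0.23 in the low Runx1 pair and -0.28 in the high one. Thy1, a surface marker of T-lineage cells, was at 135.5 CPM in tag 5, 90.7 in tag 6, 127 in tag 7 and 88.3 in tag 8. Trbc2, a T-cell receptor beta constant gene, was at 893, 693, 1067 and 762 CPM. Cd3d, a chain of the T-cell receptor complex, was at 17.9, 5.67, 7.34 and 3.59 CPM, and tags 5 and 7 themselves differed widely. Ets1, a lymphoid transcription factor, was at 18.7, 13.2, 23.8 and 14.8 CPM, and Il2ra, the CD25 chain of the IL-2 receptor, at 484, 417, 495 and 430 CPM. The 16 tested progenitor genes had medians of 0.07 and 0.03. In summed UMIs, fewer cells of a type and less RNA per cell cannot be told apart.

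Of the 6 called genes outside the lists, Serpina3f and Serpina3g, neighbouring genes for intracellular serine protease inhibitors, had large ratios. Serpina3f was at 5.08 CPM in tag 5, 35.3 in tag 6, 11.9 in tag 7 and 65.5 in tag 8. Gm4951, at chr18:60212004-60248440 and near the GTPase gene Iigp1 at chr18:60373616-60392634, was at 3.91, 25.7, 10.99 and 53.3 CPM. Both were higher in tag 7 than in tag 5 and in tag 8 than in tag 6, the order seen for the GTPases. Ms4a6c, a membrane protein gene of myeloid cells, was at 46.6, 84.4, 54.6 and 107 CPM. Guca1a, a calcium-binding activator of guanylate cyclase, was at 10.1, 15.6, 9.01 and 15.997 CPM.

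The called genes were unevenly placed in the genome. Chromosome 17 held 10 of the 30, or 33.3%, and 5.2% of the tested genes with a RefSeq position. Of the 10, 9 are MHC genes between H2-DMa and H2-T22, and the other is Guca1a at chr17:47394557-47413514. The called Gbp genes share one cluster on chromosome 3, and Tgtp1, Tgtp2, Irgm1, Irgm2 and Igtp lie on chromosome 11. These are families of neighbouring copies, so the genes are not independent observations.

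Cdk5rap1, which encodes an enzyme that modifies mitochondrial transfer RNA, was the 1 gene called lower, at chr2:154222011-154373038. It was at 11.1 CPM in tag 5, 6.41 in tag 6, 12.6 in tag 7 and 5.17 in tag 8, on 227, 181, 279 and 75 UMIs. The ratio was 0.579 (0.473 to 0.706) for tag 6 over 5 and 0.411 (0.314 to 0.533) for tag 8 over 7. Tags 1 to 4 lay at 12.7, 12.2, 12.2 and 13.0 CPM, beside the low interferon cultures. In the 8 tags of experiment 2 Cdk5rap1 ran from 6.51 to 13.0 CPM with a median of 7.33. Levels near that of tag 6 were thus also found there. With every cell thinned to 5000 UMIs it was no longer called, at a mean log2 ratio of -0.85 against -1.04. The 16 tested neighbours within 1000000 bases had mean ratios from 0.817 to 1.07 and none was called. Inside cell clusters 1, 2, 3, 4 and 8 tag 6 was lower than tag 5, and inside clusters 1, 2, 4, 6 and 9 tag 8 was lower than tag 7. Counts were small in places, as tag 8 had 3 UMIs in cluster 1 and 4 in cluster 4. Cluster 10, with 0 UMIs in tag 5 and 1 in tag 6, was too shallow to read. In cluster 6 tag 7 had 109 UMIs (12.1 CPM) and tag 8 had 11 (3.19 CPM). The difference was smaller in cluster 2, where tag 7 had 44 UMIs (12.9 CPM) and tag 8 had 21 (8.77 CPM).

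GTPase UMIs were higher in tags 6 and 8 at each percentile given here, and class II UMIs were found in more cells and in larger numbers. Each cell was thinned at random to 5000 UMIs, and 30, 28, 32 and 11 shallower cells of tags 5 to 8 were left out. The median cell of tags 5 to 8 had 1, 3, 2 and 5 GTPase UMIs, and the 10th percentile was 0, 1, 0 and 1. The share of cells with at least 1 GTPase UMI was 72.7%, 91.4%, 76.7% and 95% in tags 5 to 8. Before thinning these shares were 96.4%, 99.1%, 96.5% and 99.1%.

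For the 4 class II genes the median cell had 0, 1, 0 and 1 UMIs, and the 90th percentile was 1, 13, 1 and 12. The share of cells with at least 1 class II UMI was 17.6% (95% exact binomial interval 15.1 to 20.4) in tag 5 and 56.7% (53.7 to 59.6) in tag 6. It was 17.8% (15.6 to 20.1) in tag 7 and 50.7% (46.9 to 54.6) in tag 8. Before thinning the 4 shares were 32.5%, 72.8%, 36.0% and 66.3%. All tags were in 1 pooled library and share its free RNA, whose part in these shares was not measured. The 5% of cells with the most class II UMIs held 77.7% of them in tag 5 and 75.6% in tag 7, but 30.5% in tag 6 and 38.5% in tag 8.

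**Figure D4:**
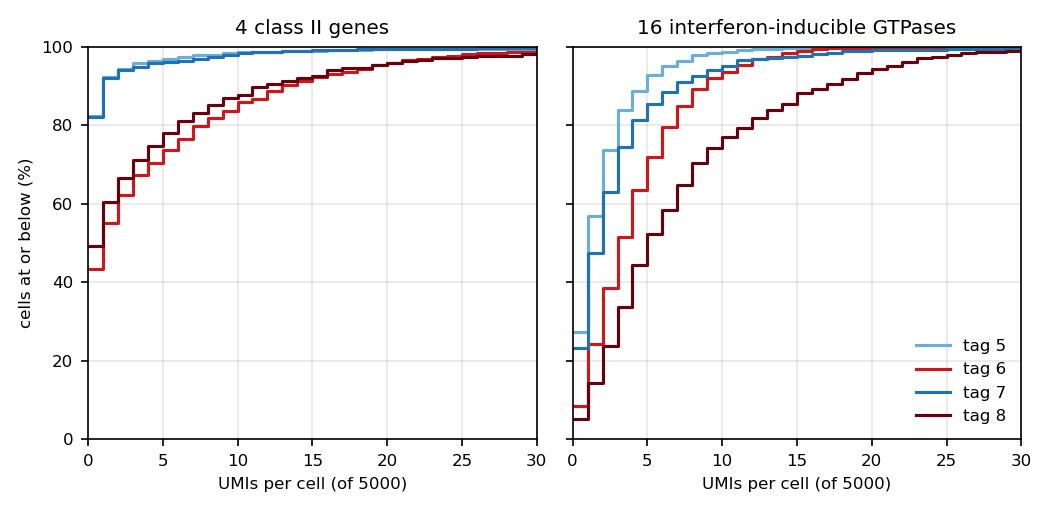
Cumulative share of cells (vertical, percent) at or below a number of UMIs per cell (horizontal) after thinning to 5000 UMIs, for the 4 class II genes and the 16 GTPases in tags 5 to 8. Class II curves of tags 6 and 8 leave the axis at 43.3% and 49.3% of cells, against over 80% for tags 5 and 7. Up to 12 UMIs the GTPase curves of tags 6 and 8 lie below those of tags 5 and 7. At 13 UMIs the GTPase curve of tag 6 (97.5%) is above that of tag 7 (97.2%).

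To see whether a mix of cell states accompanied the difference, cells of all 8 tags were clustered without the interferon and class II lists, which gave 15 clusters. Clusters are called by number. Tags 5 and 6 lay mostly in clusters 1 to 4 and tags 7 and 8 mostly in clusters 6 and 9. Cluster 2 was led by genes that include Epcam, Tcrg-C2 and Thy1, and clusters 3 and 4 by histone and mitosis genes. Cluster 6 was led by Sh2d1a, Rgs1 and Capg, and cluster 9 by Ccl24, Cox4i2 and Egfl7. Cluster 2 held 33.7%, 25.8%, 13.8% and 15.2% of tags 5 to 8, so its share was lower in tag 6 than in 5 but not lower in tag 8 than in 7.

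Both gene sums were higher in tags 6 and 8 inside every cluster with at least 30 cells in both tags of a pair. For tag 6 over 5 these were 6 clusters with 1076 and 844 cells, with class II ratios from 2.11 to 14.2 and GTPase ratios from 2.11 to 2.75. For tag 8 over 7 these were 5 clusters with 558 and 1042 cells, with class II ratios from 3.89 to 14.0 and GTPase ratios from 2.34 to 4.20. In cluster 2 the class II sum was 28.2, 160, 28.6 and 138 CPM in tags 5 to 8, and the GTPase sum was 366, 771, 331 and 773 CPM. In cluster 6 the class II sum was 128 CPM in tag 7 and 498 in tag 8, and the GTPase sum was 589 and 1734 CPM. Inside cluster 2, tags 5 and 7 thus had nearly the same GTPase sum, as did tags 6 and 8. That was not so in every cluster: in cluster 1 the sum was 348, 945, 275 and 1152 CPM in tags 5 to 8.

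**Figure D5:**
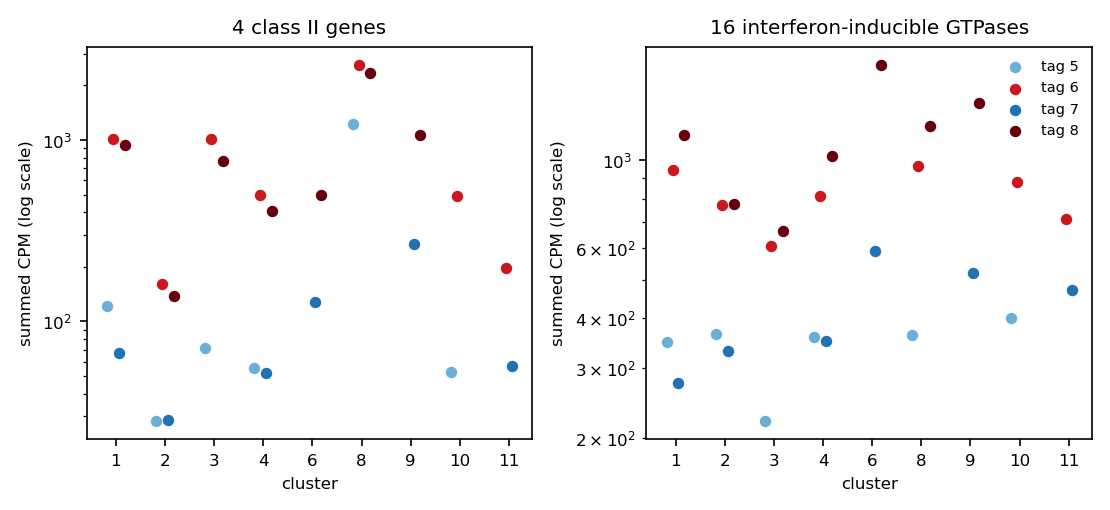
Summed CPM (log scale) of the 4 class II genes and of the 16 GTPases by cluster, for each of tags 5 to 8 with at least 30 cells there. Tags 6 and 8 (red shades) lie above tags 5 and 7 (blue shades) in each cluster drawn, and cluster 8 has the highest class II levels of tags 5, 6 and 8.

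The T-lineage genes named above were also read inside clusters, where they varied. In cluster 2 Thy1 was at 278, 236, 277 and 251 CPM in tags 5 to 8, and Trbc2 at 1142, 919, 1439 and 1305 CPM. Il2ra was at 795, 811, 952 and 1072 CPM in that cluster, and so was not lower in tags 6 and 8. In cluster 6 Thy1 was at 158 CPM in tag 7 and 115 in tag 8, and Trbc2 at 1301 and 992 CPM. In cluster 3 Thy1 was at 56.6 CPM in tag 5 and 31.5 in tag 6.

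Ms4a6c was among the leading genes of 1 cluster whose share differed within the pairs. Cluster 8, led by Ms4a4c, Cybb, Tgfbi, Kmo and Ms4a6c, held 5.8%, 10.6%, 1.6% and 5.8% of the cells of tags 5 to 8. Inside it Ms4a6c was at 476, 480 and 399 CPM in tags 5, 6 and 8. It was higher in the culture of high interferon response inside other clusters, with 27.0 and 38.7 CPM in tags 5 and 6 in cluster 1, and 115 and 201 CPM in tags 7 and 8 in cluster 9. Without cluster 8, an alternative chosen after seeing the data, 26 genes were called higher, of which 25 were shared, and Ms4a6c, Ciita, Gbp2 and H2-DMa were among those no longer called. The mean log2 ratio of Ms4a6c was 0.80 without the cluster against 0.92 with it, and that of Ciita 2.24 against 2.23, with Ciita close to the 10 CPM minimum.

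Marker lists of other lineages differed in order. The 15 granulocyte or monocyte markers summed to 601, 420, 295 and 672 CPM in tags 5 to 8, so the pairs went opposite ways. Prtn3, a granule protease of early myeloid cells, was at 126, 180, 60.6 and 174 CPM, without overlap. The 12 dendritic markers summed to 389, 499, 271 and 423 CPM, without overlap between the groups. Most of that sum was Bst2, at 281, 371, 181 and 302 CPM. Irf8 was at 43.9, 65.7, 24.2 and 57.2 CPM, and both genes are also in the interferon list. Tcf4, the other tested marker, was lower without overlap, at 49.6, 45.7, 52.0 and 47.9 CPM. The 9 OP9 stromal markers summed to 51.6, 15.7, 63.7 and 63.4 CPM. Cxcl12, a stromal chemokine outside that list, was at 21.1, 2.23, 27.7 and 14.3 CPM. The 10 B-lineage markers summed to 49.5, 53.3, 52.7 and 53.6 CPM, a near-level order. Without clusters 12, 13 and 15, led by mast cell, granulocyte and stromal markers, 30 genes were called higher, all 30 shared, and Cdk5rap1 was again the 1 called lower. The part of the dendritic markers was not tested.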

How the data were processed

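Droplet-based single-cell RNA was measured with hashtags in 2 experiments. The deposited matrices hold UMI counts per gene and cell and the deposited hashtag tables hold counts per tag and cell. Per the submitters' processing notes, Cell Ranger 3.0.0 and the builds mm10 and GRCm38 were used; cell filters by the authors are not given in the sources used here. Of 9967 barcodes in experiment 1, 9332 had at least 500 genes and under 10% mitochondrial UMIs, and 8797 of those had a tag with a count of at least 50 and at least 3 times the second. That rule leaves out doublets of 2 tags, and doublets within a tag were not called. The 2 experiments share 39 barcodes, as names only.

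UMIs were summed per tag, giving 20473455, 28218043, 22194556 and 14502385 UMIs in tags 5 to 8 and from 29689195 to 38067298 in tags 1 to 4, and divided by the total as CPM. Genes averaging 10 CPM or more over the 8 tags were compared. Ratios carry 95% exact conditional Poisson intervals and shares exact binomial ones, for counting error only. No test was made, since the tags were chosen on this contrast and each is 1 culture. The members and gene lists were chosen with earlier results of these data known. Genes were named where they were among the 15 largest ratios in a direction, called or among the 4 highest of a list, or were Runx genes, interferon ligands or receptors; other listed genes and those in the cluster comparisons were chosen after their values were seen. Some results are not reported here. CPM from this 3' tag method counts molecules and was not divided by gene length.

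Cells were clustered with scanpy 1.11.5 (2000 variable genes, 30 components, 15 neighbours, Leiden resolution 0.5). A cluster counted as compared with at least 30 cells per tag. Positions and promoters came from RefSeq GRCm38.p6 tables by gene symbol. Call and interval functions were checked on simulated data. Alternatives were other hashtag calls (HTODemux in Seurat 5.3.0), cell filters, scaling (TMM in edgeR 4.0.16 and size factors in DESeq2 1.42.0, used for scaling alone), weights, thinning, minimum levels, folds, cells and tags.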

Additional observations from a re-analysis of the deposited data

Results flagged for a closer look

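The 535 cells that passed the cell filters but had no tag call enter no comparison, and both gene sums were present in them. Their 4 class II genes summed to 346 CPM (95% exact Poisson interval 338 to 353, for counting error only). Their 16 interferon-inducible GTPases summed to 561 CPM (551 to 570). Both values lie between those of the low and the high cultures of tags 5 to 8.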

How the results depend on the processing

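Of 589 values for the 31 called genes under 19 alternatives, 0 changed direction and 111 moved beyond their counting interval. The count of genes higher was 30. It was 16 with a minimum of 50 CPM, 47 with 2 CPM and 10 with a 2-fold rule, and 20 to 30 under the other alternatives that kept all 4 tags. It was 34 to 62 with one tag left out (59, 62 and 59 without tag 5, 6 or 7). A call then needs fewer values, so all 30 remain by the rule itself. Gbp2 was lost with TMM, DESeq2 size factors, thinning and means over cells, and Ciita with DESeq2 size factors, without the 5 top barcodes, without the top 2% of UMIs and without cluster 8. Thinning also lost Iigp1, Irgm1, Tgtp2, Parp9, Nlrc5, H2-DMa, Serpina3g and Gm4951, and means over cells lost those except Serpina3g and Gm4951, and Irgm2, Guca1a and Ms4a6c. The count lower was 1 (Cdk5rap1). It was 2 with the stricter cell filter, 4 with means over cells, 0 with 50 CPM or 2-fold, 11 with 2 CPM, and 6 to 13 without one tag (13, 6, 11 and 11 without tags 5 to 8); thinning called Cd3d in place of Cdk5rap1. The median log2 ratio of class II was 2.18, with 1.93 for means over cells, 1.99 thinned, 2.35 without the 5 top barcodes, 2.55 and 2.01 with 50 and 2 CPM, and 1.98 to 2.39 without one tag (2.32, 1.98, 2.05 and 2.39 without tags 5 to 8). For all interferon roles it was 0.51, with 0.30 to 0.63 without one tag (0.34, 0.63, 0.61 and 0.30 without tags 5 to 8). Fewer genes are tested at a higher minimum; the cause of the other shifts was not tested. The alternatives without cluster 8 and without the cells of the top 2% of UMIs (29 genes higher), were chosen after seeing the data. No paired analysis was possible because the labels give the tags no replicate numbers and no test was made. Depth limits genes near 10 CPM, which rest on 75 to 279 UMIs per tag for Cdk5rap1.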
